A study of Mus musculus with 6 samples.

Results

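The matrix metalloproteinases (MMPs), the tissue inhibitors of metalloproteinases (TIMPs) and the ADAMTS proteases were examined in cells sorted from the proximal aorta of mice. Members were taken by gene name alone, as the rows named Mmp or Adamts followed by digits only and *Timp1* to *Timp4*, so that ADAMTS-like genes, *Mmp1a* and *Mmp1b* were left out. This gave 44 of 24421 rows, with 21 MMPs, 4 TIMPs and 19 ADAMTS genes. The study digested the root and ascending part of the aorta of 129S6/SvEv mice at 8 weeks of age and sorted living GFP+ cells. All mice carried the conditional *CAG-Sun1/sfGFP* tracer allele. In the secondary heart field (SHF) group the tracer was switched on by *Mef2c* SHF Cre, and in the cardiac neural crest (CNC) group by *Wnt1-Cre2*, with 3 libraries in each. The column names mark all libraries as WT (wild type). They call the SHF group AHF, which is taken here as another name for it. These Cre lines mark descent from a progenitor field and not a cell type. Levels are in TPM, transcript abundances scaled for gene length to the same total in each library, so that the number of reads behind a value is unknown and no detection limit can be given. The labels number the replicates, and the study calls them biological replicates.

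MMPs are zinc-dependent proteases that cut collagens, elastin and other matrix proteins, and most are made as inactive proenzymes that have to be cleaved. TIMPs bind the active site of MMPs and of some related proteases. ADAMTS proteases act on proteoglycans such as versican, on procollagen and on microfibril proteins. In the aortic wall the turnover of elastic lamellae and collagen by these enzymes is a known feature of aneurysm, and MMP-2, MMP-9, ADAMTS-1 and TIMP-3 are among those most studied there.

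The libraries were rich in fibroblast transcripts. The summed level of 8 fibroblast genes, led by *Gsn* and *Dcn*, ran from 32434 to 48960 TPM, and that of 10 smooth muscle genes, led by *Myl9* and *Acta2*, from 1297 to 3076 TPM. The lineages overlapped in both sums. All 8 fibroblast genes and 8 of the 10 smooth muscle genes were at 1 TPM or above in every library. The sum of 8 endothelial genes, led by *Pecam1* and *Emcn*, was 82.8 to 455 TPM in SHF libraries and 22.9 to 61.0 TPM in CNC libraries, and that of 6 cardiomyocyte genes, led by *Tnnt2* and *Actc1*, 87.4 to 116 TPM and 0 to 37.9 TPM. *Cdh5*, *Emcn*, *Tie1* and *Vwf* were listed at 0 in the CNC libraries, but *Tie1* and *Vwf* were also at only 0.3 and 0.04 TPM in SHF replicate 1. The other endothelial genes overlapped. *Pecam1* and *Tek* were above 0 in every CNC library, *Kdr* in CNC replicate 1 and *Egfl7* in CNC replicate 3. The sum of 9 leukocyte genes, led by *Cd74* and *Lyz2*, was 178 to 387 TPM and 18.5 to 352 TPM, with *Ptprc*, *Adgre1*, *Itgam*, *S100a8* and *S100a9* listed at 0 in all 6 libraries. The sum of 5 mesothelial genes, led by *Krt19* and *Upk3b*, was at most 66.7 TPM. *Xist* was above 0 only in SHF replicates 2 and 3, and the Y-linked *Ddx3y* and *Eif2s3y* only in the other 4 libraries. A change in the share of a cell type and a change in RNA per cell cannot be told apart in such libraries, and the part of these differences in the results on the members was not tested.

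A few members held most of the signal. All 44 members together made up 0.402% ± 0.086 of TPM in SHF libraries and 0.479% ± 0.0803 in CNC libraries (SD, n = 3 each). A mean of at least 100 TPM over the 6 libraries was reached by 8 members, *Mmp2*, *Timp3*, *Timp1*, *Mmp23*, *Adamts2*, *Adamts1*, *Timp2* and *Mmp3*, in that order. A mean of at least 10 TPM was reached by 19. In every library 16 members were above 0, another 17 were above 0 in some libraries, and 11 were listed at 0 in all 6. Those 11 were *Mmp7*, *Mmp8*, *Mmp9*, *Mmp10*, *Mmp12*, *Mmp13*, *Mmp20*, *Mmp21*, *Mmp25*, *Mmp28* and *Adamts18*. They include the collagenases of the list (*Mmp8* and *Mmp13*), the second gelatinase (*Mmp9*) and the macrophage elastase (*Mmp12*). With depth unknown, a listing at 0 does not show that the cells lacked the transcript.

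**Figure D1:**
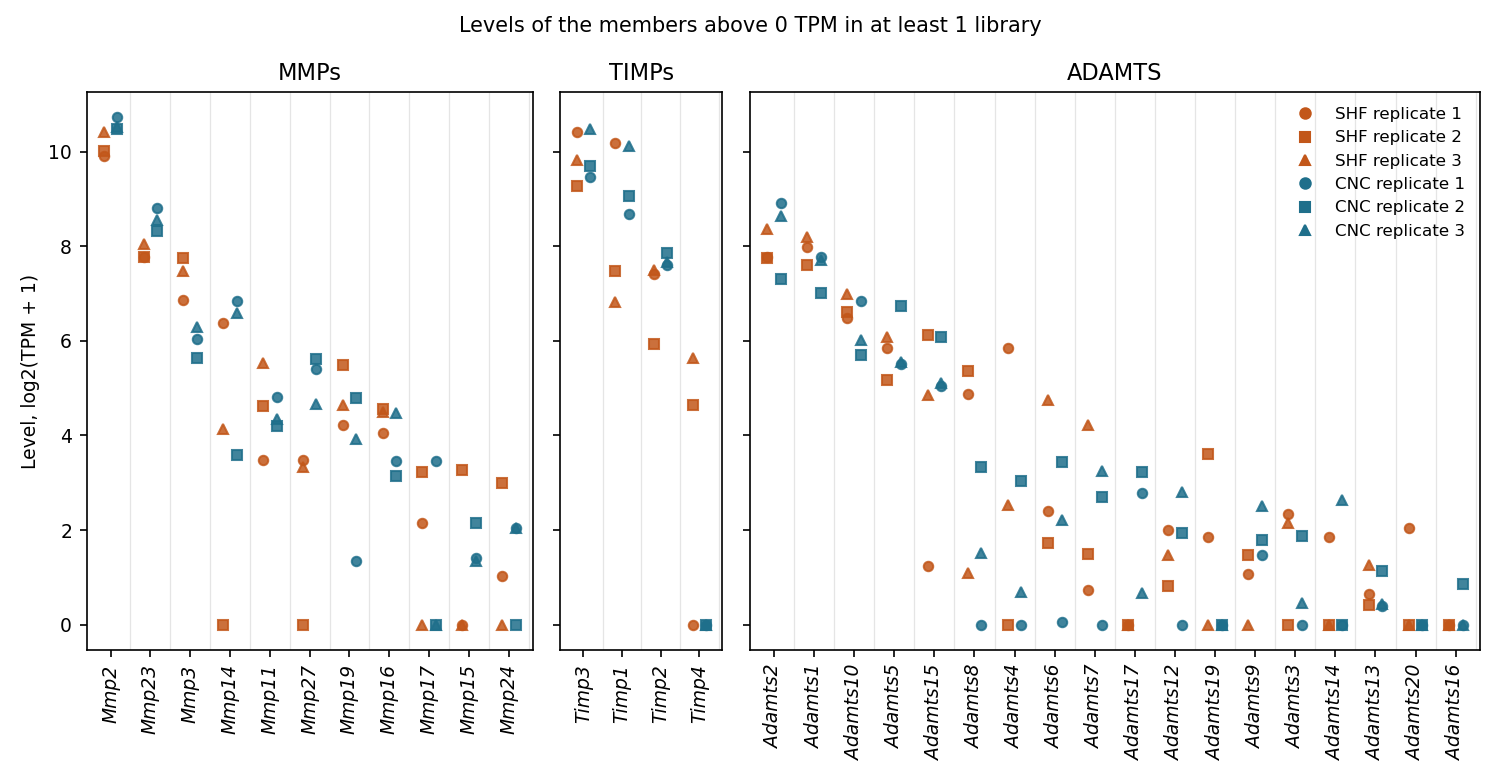
Level of each member above 0 TPM in at least 1 library, as log2(TPM + 1) on the vertical axis, for MMPs, TIMPs and ADAMTS genes in order of mean TPM. Orange symbols are SHF libraries and blue symbols CNC libraries, with a circle, square and triangle for replicates 1, 2 and 3, and the less abundant members have libraries at 0 in either lineage.

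Levels were compared between lineages with limma on log2(TPM + 1), a scale that understates changes of low genes, as SHF minus CNC in 10185 genes that reached 1 TPM in 3 or more libraries, and p-values had Benjamini-Hochberg adjustment. Of the 44 members, 26 passed this filter, 11 MMPs, 3 TIMPs and 12 ADAMTS genes. The 18 others were the 11 at 0 throughout and *Timp4*, *Adamts13*, *Adamts14*, *Adamts16*, *Adamts17*, *Adamts19* and *Adamts20*. None of the 26 had an adjusted p under 0.05 in limma, in either direction, and the smallest was 0.66. Among all genes tested the share past this threshold was 0% in each direction. At an unadjusted p under 0.05 there were 3 members, *Mmp3*, *Mmp27* and *Mmp23*, against 597 of all genes (5.86%). The SHF and CNC libraries did not overlap for 6 of the 26 members. SHF was higher for 1 of them (*Mmp3*), against 6.11% of all genes tested, and CNC for 5 (*Mmp2*, *Mmp23*, *Mmp27*, *Timp2* and *Adamts9*), against 5.68%. The median difference was -0.03 on the log2 scale over the 26 members and 0.02 over all genes tested, with 12 members above 0 and 14 below. The members' median was -0.13 without CNC replicate 1 and 0.16 without CNC replicate 3, so it had no settled sign. Lineage-exclusive members were sought with the study's threshold of 5 TPM throughout a lineage, and exclusive was taken here to mean a listing at 0 throughout the other. There were 0 exclusive members in either direction. Of all rows, 0.0778% were exclusive to SHF and 0.0614% to CNC. The smallest two-sided p of an exact permutation test on any 1 gene would be 0.1 with 3 libraries in each lineage.

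**Figure D2:**
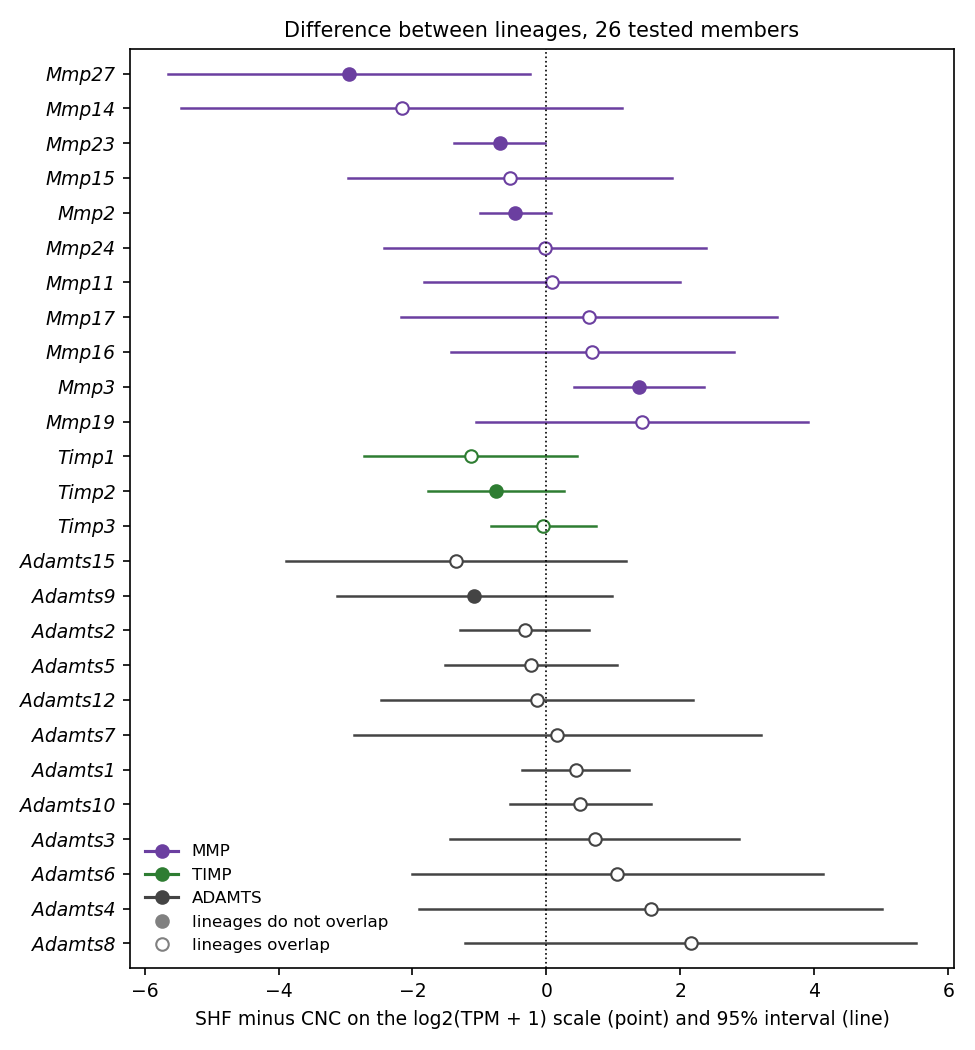
Difference in level between the lineages for the 26 tested members, SHF minus CNC on the log2(TPM + 1) scale (horizontal axis), with its 95% interval from limma as a line. Filled points mark the 6 members whose libraries did not overlap, and the intervals of *Mmp3*, *Mmp27* and *Mmp23* leave out 0 before adjustment for the number of genes.

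*Mmp3*, *Mmp2* and *Mmp23* together held between 90.2% and 94.0% of the summed MMP level in each library. *Mmp2*, which encodes gelatinase A, lies on chromosome 8 of GRCm38 from 92827291 to 92853420 and was the most abundant member. It had 959, 1039 and 1379 TPM in SHF replicates 1, 2 and 3 against 1698, 1441 and 1482 TPM in CNC replicates 1, 2 and 3. The lowest CNC library was just above the highest SHF library. The means were 1125 ± 223 TPM (SD, n = 3) and 1540 ± 138 TPM (SD, n = 3), a log2 difference of -0.47 (SE 0.24), with a limma adjusted p of 0.874. Its share of the MMP sum was close in the lineages, 67.9% ± 2.89 in SHF and 71.7% ± 2.72 in CNC libraries (SD, n = 3 each).

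*Mmp23*, which encodes an MMP that is anchored in the membrane as a proenzyme, lies on chromosome 4 from 155650655 to 155653384. It had 218, 217 and 265 TPM in the SHF replicates against 448, 321 and 376 TPM in the CNC replicates. All CNC libraries were above all SHF libraries, and the SHF libraries lay close together. The log2 difference was -0.70 (SE 0.31), with a limma adjusted p of 0.821 and a 95% interval from -1.37 to -0.03. That the interval leaves out 0 rests on the trend in the limma fit, without which the SE was 0.52 (limma unadjusted p of 0.220). In the fits that each left out 1 library the difference ran from -0.82 to -0.58, with limma unadjusted p-values from 0.042 to 0.129. Of the 8 fibroblast genes, *Pi16*, *Clec3b* and *Serpinf1* were also higher in all CNC than in all SHF libraries, against 5.68% of all genes tested. These were chosen after their values were seen. All the others overlapped, as did the summed level, and the log2 differences of *Gsn* and *Dcn* were 0.09 and -0.13. The part of the fibroblast genes in the differences of the 5 members higher in CNC was not tested.

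*Mmp3* encodes stromelysin-1, which cuts proteoglycans, fibronectin and basement membrane proteins and can activate other MMP proenzymes. It was the only member above all CNC libraries in every SHF library. *Mmp3* had 116, 214 and 179 TPM in SHF replicates 1, 2 and 3 against 64.7, 48.9 and 77.2 TPM in CNC replicates 1, 2 and 3. The means of 169.6 ± 49.2 TPM and 63.6 ± 14.2 TPM (SD, n = 3 each) differed by 1.38 on the log2 scale (SE 0.44, 95% interval 0.41 to 2.35), and the adjusted p in limma was 0.66. In the fits that each left out 1 library the difference stayed between 1.19 and 1.63, and without SHF replicates 2 and 3 it was 0.89. The endothelial and cardiomyocyte sums were also higher in all SHF than in all CNC libraries, and their part in the *Mmp3* difference was not tested. *Mmp2* and *Mmp23* were higher in CNC, and the ratio of *Mmp2* to *Mmp3* TPM was 8.23, 4.86 and 7.72 in the SHF replicates and 26.3, 29.5 and 19.2 in the CNC replicates. The ratio of *Mmp23* to *Mmp3* was between 1.02 and 1.87 in SHF libraries and between 4.87 and 6.93 in CNC libraries. These ratios do not depend on how the libraries were scaled. They could not overlap between the lineages, since each sets a gene higher in all CNC libraries over one higher in all SHF libraries. Their lack of overlap is thus no further result. The ratios were formed after the values were seen and were not tested.

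*Mmp27*, a less studied relative of the stromelysins, was higher in CNC libraries. It had 10.2, 0 and 9.15 TPM in SHF replicates 1, 2 and 3 against 41.2, 48.3 and 24.4 TPM in CNC replicates 1, 2 and 3. The highest SHF library was below the lowest CNC library, and SHF replicate 2 was listed at 0. The log2 difference was -2.95 (SE 1.23), with a limma adjusted p of 0.812. It ran from -3.56 to -1.81 when 1 library was left out and was -4.11 with a pseudocount of 0.1 and -2.02 with one of 5, so its size rests on how low values are treated.

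**Figure D3:**
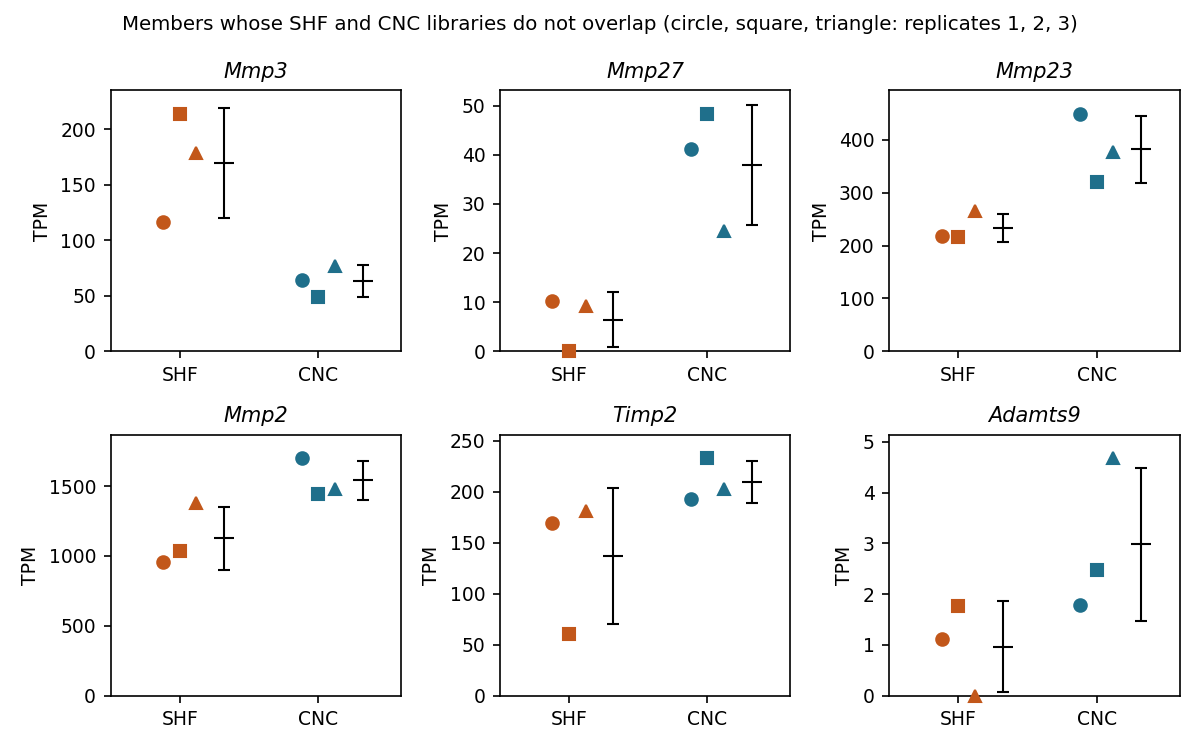
TPM of the 6 tested members whose SHF (orange) and CNC (blue) libraries do not overlap, with a circle, square and triangle for replicates 1, 2 and 3 and the mean ± SD (n = 3) in black beside them. Each vertical axis starts at 0, and only *Mmp3* is higher in SHF libraries.

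*Mmp3* and *Mmp27* lie in one run of MMP genes on chromosome 9. In the order *Mmp13*, *Mmp12*, *Mmp3*, *Mmp10*, *Mmp8*, *Mmp27*, *Mmp20* and *Mmp7*, it holds 8 members between 7272514 and 7699585 on the plus strand. *Mmp3* spans 7445822 to 7455975 and *Mmp27* 7571396 to 7581885. These were the 2 members of the run above 0 in any library, and the other 6 were listed at 0 in all. The 250 bases before the RefSeq start of these neighbours are shown because their libraries did not overlap, in opposite directions, although neither passed the test. They are from RefSeq on GRCm38.p6, plus strand, chr9:7445572-7445821 for *Mmp3* and chr9:7571146-7571395 for *Mmp27*, 5′ to 3′. Capitals mark TGANTCA, the core letters bound by AP-1 (the Fos and Jun family), and TATAAA, each searched on both strands.
Mmp3: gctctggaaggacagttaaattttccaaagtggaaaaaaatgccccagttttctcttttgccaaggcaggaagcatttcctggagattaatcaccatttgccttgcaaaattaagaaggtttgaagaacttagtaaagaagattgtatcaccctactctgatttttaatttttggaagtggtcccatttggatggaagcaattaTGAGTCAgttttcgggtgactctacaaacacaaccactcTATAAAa
Mmp27: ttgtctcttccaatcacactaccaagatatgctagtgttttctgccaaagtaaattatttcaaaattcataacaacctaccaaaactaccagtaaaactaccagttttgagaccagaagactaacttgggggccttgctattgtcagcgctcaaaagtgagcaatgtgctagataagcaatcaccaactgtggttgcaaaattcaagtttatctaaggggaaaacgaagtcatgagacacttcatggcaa

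The *Mmp3* window held both motifs and the *Mmp27* window neither. All 8 members of the run had a promoter in the RefSeq table, and TGANTCA was found in 6 of them, all but *Mmp8* and *Mmp27*. Of the 22 other members with a promoter in that table, 0 held it within 250 bases. Among all 32851 promoter windows of that length 6.75% held TGANTCA and 12.4% held TATAAA. The motif with 10 bases on each side is shown for the other 5 members of the run, to set beside the *Mmp3* window, in which it starts 46 bases before the RefSeq start. It starts 63 bases before the start in *Mmp10* and *Mmp7*, 44 in *Mmp12*, 35 in *Mmp13* and 95 in *Mmp20*.
Mmp10: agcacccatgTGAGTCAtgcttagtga
Mmp12: acatcaacagTGAGTCAgatagaggat
Mmp13: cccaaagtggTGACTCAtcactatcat
Mmp20: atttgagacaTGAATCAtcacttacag
Mmp7: agtgtgcaaaTGAGTCAcctatttcca

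Of the 6 members of the run with the motif, 5 were thus listed at 0 and *Mmp3* was at 48.9 TPM or above in every library. A match of letters is a description and not a binding site. In the same libraries *Fos* was between 1188 and 2504 TPM and *Junb* between 1057 and 2360 TPM. Of 12 immediate early and AP-1 genes, 11 were tested, 0 passed the limma threshold, and their median difference was 0.35 on the log2 scale, 0.67 without SHF replicate 2 and 0.19 without SHF replicate 3. *Fosl2* and *Jund*, chosen after their values were seen, did not overlap and were higher in SHF, against 6.11% of all genes. *Fosl2* had 72.1, 40.3 and 45.8 TPM in SHF against 16.5, 30.2 and 31.9 TPM in CNC replicates, and *Jund* had 12.9, 18.5 and 10.7 TPM against 2.24, 7.75 and 4.02 TPM, with limma adjusted p-values of 0.876 and 0.889.

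Among membrane-type MMPs, *Mmp14* encodes the enzyme that, together with TIMP-2, activates the proenzyme of MMP-2 at the cell surface. *Mmp14* varied far more within lineages than *Mmp2*. It had 82.6, 0 and 16.7 TPM in SHF replicates 1, 2 and 3 against 113, 11.1 and 94.8 TPM in CNC replicates 1, 2 and 3. The lineages overlapped, and SHF replicate 2 was listed at 0. The log2 difference was -2.16 (SE 1.496, limma adjusted p of 0.883), and it was -0.41 without SHF replicate 2, -3.60 without SHF replicate 1 and 0.71 without SHF replicates 2 and 3. *Mmp16* had 15.6, 22.7 and 21.6 TPM in the SHF replicates against 9.93, 7.79 and 21.2 TPM in the CNC replicates, with a log2 difference of 0.68 (SE 0.96) that was 0.41 without CNC replicate 2 and 1.08 without CNC replicate 3. *Mmp15*, *Mmp17* and *Mmp24* did not exceed 10.1 TPM in any library, and *Mmp25* was listed at 0 in all.

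The remaining MMPs above 10 TPM on average were *Mmp11* and *Mmp19*. *Mmp11*, or stromelysin-3, had 10.1, 23.5 and 45.4 TPM in SHF replicates 1, 2 and 3 against 27.3, 17.3 and 19.5 TPM in CNC replicates 1, 2 and 3. The SHF values spanned the CNC values. *Mmp19* was at 17.8, 44.2 and 23.9 TPM and at 1.54, 26.9 and 14.3 TPM in the same order, and a single low CNC library set most of its log2 difference of 1.43 (SE 1.13), which was 0.42 without CNC replicate 1.

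All 4 TIMPs had a mean of at least 10 TPM. *Timp3*, whose protein is held in the extracellular matrix and inhibits ADAMTS proteases as well as MMPs, was above *Timp1* and *Timp2* in 6 of 6 libraries. *Timp3* had 1361, 621 and 904 TPM in SHF replicates 1, 2 and 3 against 708, 826 and 1442 TPM in CNC replicates 1, 2 and 3. The means were 962 ± 373 TPM and 992 ± 394 TPM (SD, n = 3 each). The log2 difference was -0.05 with a 95% interval from -0.83 to 0.73, and it was 0.23 without SHF replicate 2 and 0.26 without CNC replicate 3. *Timp3* lies on chromosome 10 from 86300372 to 86349506 inside *Syn3*, which is on the other strand and shares exonic bases with it.

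*Timp1*, which encodes a soluble and inducible inhibitor, was the most variable of the abundant members. It had 1164, 178 and 112 TPM in SHF replicates 1, 2 and 3 against 409, 534 and 1121 TPM in CNC replicates 1, 2 and 3. SHF replicate 1 was the highest of all 6 libraries and SHF replicates 2 and 3 the lowest. The means of 484 ± 589 TPM and 688 ± 380 TPM (SD, n = 3 each) gave a log2 difference of -1.13 (SE 0.72) and a limma adjusted p of 0.874. *Timp1* lies on chromosome X from 20870166 to 20874735, inside *Syn1* on the other strand, and the libraries with *Xist* were those with its lowest values. Without SHF replicate 1 the log2 difference was -2.14, and without SHF replicates 2 and 3 it was 0.89, so that its direction rests on which SHF libraries are kept. SHF replicate 1 and CNC replicate 3, the highest in *Timp1*, also had the most genes above 0, at 11858 and 11334, against 9255 to 10698 in the other libraries.

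*Timp2*, on chromosome 11 from 118301069 to 118355740, was the steadiest TIMP among CNC libraries. It had 169.5, 60.4 and 181 TPM in SHF replicates 1, 2 and 3 against 193, 233 and 202 TPM in CNC replicates 1, 2 and 3. The CNC libraries were above all SHF libraries, but by a narrow margin, and SHF replicate 2 was far below the rest. The log2 difference was -0.76 (SE 0.46, limma adjusted p of 0.874) and -0.25 without SHF replicate 2. The ratio of *Mmp2* to *Timp2* TPM was 5.66, 17.2 and 7.61 in the SHF replicates and 8.80, 6.20 and 7.33 in the CNC replicates, and it overlapped. *Timp4*, an inhibitor with a narrow tissue range that includes the heart, had 0, 23.9 and 48.5 TPM in SHF replicates 1, 2 and 3 and was listed at 0 in all CNC libraries. It did not pass the filter. *Timp4* lies inside *Syn2* on chromosome 6, from 115241892 to 115252205, with shared exonic bases.

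The balance of inhibitors and proteases differed more between replicates than between lineages. The summed TIMP level was 2695, 883 and 1245 TPM in SHF replicates 1, 2 and 3 and 1309.5, 1593 and 2765 TPM in CNC replicates 1, 2 and 3. The summed MMP level was 1434, 1584 and 1939 TPM and 2419, 1925 and 2114 TPM in the same order. SHF replicate 3 was just above CNC replicate 2, so that the lineages overlapped in the MMP sum. The ratio of the TIMP sum to the MMP sum was 1.88, 0.558 and 0.642 in the SHF replicates and 0.541, 0.827 and 1.31 in the CNC replicates. It was above 1 in SHF replicate 1 and CNC replicate 3 only. The mean ratio was 1.03 ± 0.74 in SHF and 0.892 ± 0.387 in CNC libraries (SD, n = 3 each), and 0.6 in SHF without SHF replicate 1. *Timp3* made up 50.5% to 72.6% of the TIMP sum in SHF libraries and 51.9% to 54.0% in CNC libraries, and *Timp1* 8.96% to 43.2% and 31.2% to 40.5%.

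**Figure D4:**
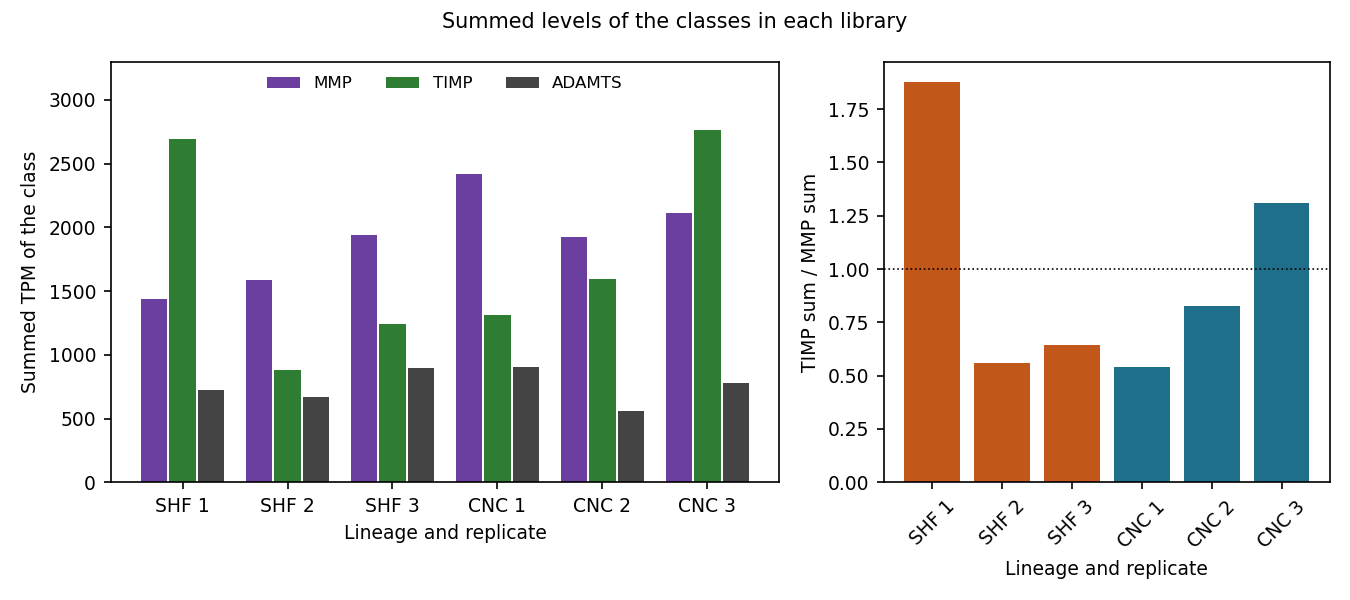
Left, summed TPM of the MMPs, TIMPs and ADAMTS genes in each library (1 bar per class), and right, the ratio of the TIMP sum to the MMP sum in SHF (orange) and CNC (blue) libraries, with a dotted line at 1. The ratio is above 1 in SHF replicate 1 and CNC replicate 3 and between 0.541 and 0.827 in the other 4 libraries.

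Among ADAMTS genes, *Adamts2* and *Adamts1* together held 50.9% to 78.0% of the summed level. ADAMTS-2 removes the N-terminal propeptide of fibrillar procollagens. *Adamts2* had 218, 216 and 327 TPM in SHF replicates 1, 2 and 3 against 484, 157 and 399 TPM in CNC replicates 1, 2 and 3. CNC replicate 2 was the lowest library and the lineages overlapped (log2 difference -0.32, SE 0.44, limma adjusted p of 0.920). The difference was -0.82 without CNC replicate 2 and -0.0085 without CNC replicate 1. The related *Adamts3* and *Adamts14* reached at most 5.22 TPM in any library.

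The hyalectanases, which cut versican and aggrecan, are *Adamts1*, *Adamts4*, *Adamts5*, *Adamts8*, *Adamts9*, *Adamts15* and *Adamts20*. *Adamts1* had 253, 193 and 294 TPM in SHF replicates 1, 2 and 3 against 219.8, 128 and 207 TPM in CNC replicates 1, 2 and 3. The ranges overlapped, with a log2 difference of 0.43 (SE 0.37, limma adjusted p of 0.892) and a 95% interval from -0.37 to 1.24, and the difference was 0.19 without CNC replicate 2. Its neighbour *Adamts5* had 56.6, 35.3 and 66.7 TPM in the SHF replicates against 44.4, 106 and 46.2 TPM in the CNC replicates. *Adamts1* spans 85793827 to 85803113 and *Adamts5* 85856173 to 85901828 on chromosome 16, both on the minus strand, and *Adamts1* was above *Adamts5* in 6 of 6 libraries.

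Less abundant hyalectanases were uneven between replicates. *Adamts15* had 1.35, 68.7 and 27.8 TPM in SHF replicates 1, 2 and 3 against 32.3, 67.0 and 33.5 TPM in CNC replicates 1, 2 and 3. SHF replicate 1 alone stood apart, and without it the log2 difference moved from -1.35 to 0.07. *Adamts8*, next to *Adamts15* on chromosome 9, was at 28.2, 39.9 and 1.12 TPM and at 0, 9.11 and 1.84 TPM in the same order. Its log2 difference was 2.15 (SE 1.53), with a limma adjusted p of 0.886. It was 3.50 without SHF replicate 3, 1.36 without SHF replicate 2 and 1.35 without CNC replicate 1. *Adamts4* was at 57.1, 0 and 4.75 TPM and at 0, 7.19 and 0.61 TPM, so that SHF replicate 1, also the highest library in *Timp1*, set its SHF mean. Without that library its log2 difference moved from 1.55 to 0.02. *Adamts9* was low throughout, at 1.11, 1.77 and 0 TPM in SHF replicates against 1.79, 2.47 and 4.67 TPM in CNC replicates. Its groups did not overlap, but SHF replicate 2 and CNC replicate 1 had almost the same value. *Adamts20* was above 0 in SHF replicate 1 only.

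*Adamts10*, whose protein binds fibrillin microfibrils, had 88.1, 96.8 and 127 TPM in SHF replicates 1, 2 and 3 against 114, 51.4 and 63.5 TPM in CNC replicates 1, 2 and 3. The lineages overlapped (log2 difference 0.50, SE 0.48, limma adjusted p of 0.896). The difference was 0.27 without CNC replicate 2 and 0.83 without CNC replicate 1. Its close relative *Adamts6* was lower, between 0.04 and 25.9 TPM. *Adamts17*, another relative in fibrillin biology, was chosen after its values were seen. It was listed at 0 in all SHF libraries and had 5.93, 8.38 and 0.58 TPM in CNC replicates 1, 2 and 3, and it did not pass the filter. *Adamts7* and *Adamts12*, which cut cartilage oligomeric matrix protein (COMP), reached 17.7 and 5.95 TPM at most. *Adamts13*, *Adamts16* and *Adamts19* were at 1.41 TPM, 0.81 TPM and 11.3 TPM or below.

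The other genes of the system were read from lists of regulators, activators and substrates, which were chosen with earlier results of these data known. In each of these lists 0 genes had a limma adjusted p under 0.05. Of 10 cell-surface regulators and clearance receptors, 7 were tested, with a median difference of 0.33 (0.73 when SHF replicate 1 was left out and 0.20 when CNC replicate 2 was) and 2 genes without overlap, *Sdc4* and *Cd44*, both higher in SHF, against 6.11% of all genes. *Bsg*, or EMMPRIN, which induces MMPs in neighbouring cells, had 543, 783 and 417 TPM in SHF replicates against 746, 962 and 899 TPM in CNC replicates, and overlapped. *Sdc4*, a heparan sulphate proteoglycan, was at 447, 588 and 532 TPM and at 342, 357 and 289 TPM, with a limma adjusted p of 0.820. Of the 4 proprotein convertases, which activate membrane-type MMPs and ADAMTS proenzymes, *Pcsk5* ranged from 33.9 to 131 TPM and *Pcsk6* from 0 to 34.8 TPM, and *Furin* did not exceed 13.1 TPM. The convertase without overlap, against 5.68% of all genes with CNC higher, was *Pcsk7*, with 1.69, 0.64 and 0 TPM in SHF against 4.46, 29.6 and 21.8 TPM in CNC replicates and a log2 difference of -3.25 (limma adjusted p of 0.771).

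In the plasminogen system, whose product plasmin can activate MMP proenzymes, 5 of 8 genes were tested. All 5 had a difference below 0, as did 4970 of the 10185 genes tested, and 0 of them had an unadjusted p under 0.05. Their median of -1.04 was -0.54 without SHF replicate 3 and 0.0065 without SHF replicates 2 and 3. *Serpine2* had 118, 217 and 48.8 TPM in SHF replicates against 271, 180 and 260.1 TPM in CNC replicates, and *Plat* had 197, 101 and 86.6 TPM against 148, 235 and 218 TPM. Plasminogen itself (*Plg*) was listed at 0 in all libraries. Of 7 ADAMTS-like genes, 6 were tested, and *Adamtsl2* and *Adamtsl4* did not overlap, in opposite directions, against 11.8% of all genes in either. *Adamtsl2* had 130.1, 149.9 and 104 TPM in SHF against 46.3, 92.9 and 73.4 TPM in CNC replicates. *Adamtsl4* had 43.3, 41.3 and 29.3 TPM in SHF against 151, 155 and 54.2 TPM in CNC replicates. Of 8 ADAM sheddases, 6 were tested. *Adam9* was between 77.9 and 175 TPM and *Adam15* between 36.4 and 184 TPM, and both overlapped. The sheddases without overlap, against 11.8% of all genes, were *Adam10*, with 43.5, 142 and 54.2 TPM in SHF against 10.2, 41.9 and 20.5 TPM in CNC replicates, and *Adam33*, with 3.15, 0 and 1.53 TPM against 30.7, 17.1 and 8.01 TPM. Their log2 differences were 1.69 and -2.98, with limma adjusted p-values of 0.825 and 0.813.

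Among 12 substrates of these enzymes, 10 were tested, and 6 had an unadjusted p under 0.05, against 5.86% of all genes. The list was chosen with earlier results of these data known, so its shares beside those of all genes are not a test of it. The lineages did not overlap for 5, against 11.8% of all genes, with *Vcan* and *Thbs1* higher in SHF and *Col1a1*, *Col3a1* and *Comp* in CNC. *Col3a1* had 8546, 6770.3 and 8644 TPM in SHF replicates 1, 2 and 3 against 17544, 9250.1 and 16138 TPM in CNC replicates 1, 2 and 3. *Bgn*, which encodes biglycan, was between 8279.8 and 13166 TPM and overlapped. *Thbs1* (thrombospondin-1) had 504, 545 and 98.7 TPM in SHF against 66.0, 76.3 and 49.5 TPM in CNC replicates, a log2 difference of 2.24 (limma adjusted p of 0.548). *Vcan*, *Comp*, *Col1a1* and *Eln* (elastin), known substrates of hyalectanases, ADAMTS-7, collagenases and elastases, were, like *Thbs1*, chosen after their values were seen. *Vcan* had 234, 304 and 135 TPM in SHF against 88.6, 94.8 and 96.7 TPM in CNC replicates, higher in SHF by 1.18 on the log2 scale (limma adjusted p of 0.699). *Comp* had 308, 433 and 319 TPM in SHF against 696, 1000.4 and 764 TPM in CNC replicates, and *Col1a1* had 4541, 4005 and 4396 TPM against 11792, 7322 and 12778 TPM. Their log2 differences were -1.21 and -1.26, with limma adjusted p-values of 0.475 and 0.465. *Eln* had 1758, 369.7 and 581 TPM in SHF and 4711, 1081 and 3297 TPM in CNC replicates, and overlapped.

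Exons of 10 members overlap those of another protein-coding gene in GENCODE M21, namely *Timp3*, *Timp4*, *Mmp11*, *Mmp19*, *Mmp12*, *Mmp24*, *Mmp28*, *Adamts4*, *Adamts7* and *Adamts9*. The counting is not stated to use strand, so reads there could belong to either gene. *Mmp2*, *Mmp3*, *Mmp23*, *Mmp27* and *Timp2* have no such overlap.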

How the data were processed

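The authors dissociated the tissue with collagenase II and elastase. RNA of sorted cells was amplified by the authors with the SmartSeq2 protocol, which has no molecular identifiers, and libraries were made with Nextera XT. Per the labels and the study's methods, reads were aligned with Bowtie2 to mm10 and gene levels were estimated with RSEM 1.2.25. The gene annotation is not given in the sources used here. The authors deposited 1 matrix of TPM with 24421 rows, 1 column per library, matched to the labels by library code. TPM keeps no record of depth, so no counting interval could be given. Names of 27 rows are dates, as spreadsheets make from gene symbols. These rows stayed in the fits.

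Levels were tested with limma 3.58.1 in R 4.3.3 (eBayes with a trend) on log2(TPM + 1), a scale that understates changes of low genes, for genes that reached 1 TPM in 3 or more libraries. The fit was tested on simulated data with larger differences than any member had, placed in genes that were not low. It therefore does not show that differences of the members' size would be found. The members and gene lists were chosen with earlier results of these data known. Named members were those with a mean of at least 10 TPM, those tested whose lineages did not overlap, those above 1 TPM in every library of a lineage and at 0 in at least 2 of the other, the 5 with the smallest unadjusted p, those at 0 throughout, and the 2 most abundant genes of each list. Others were chosen after their values were seen (*Adamts17*, *Vcan*, *Comp*, *Col1a1*, *Eln*, *Thbs1*, *Pcsk7*, *Adam10*, *Adam33*, *Cd44*, *Furin*, *Plg*, and the low MMP and ADAMTS genes given by their range). So were *Fosl2*, *Jund*, *Pi16*, *Clec3b*, *Serpinf1*, and the endothelial and leukocyte genes named beyond the 2 most abundant of their lists. Positions of all 44 members are from GENCODE M21 on GRCm38, and promoters of 30 members from RefSeq on GRCm38.p6, whose 50 bases after the start were not used. Protein sequences were not used here. The result of 1 cell type list is not reported here. Alternatives were other pseudocounts, filters, scaling, weights, a replicate block and left-out libraries. Replicate numbers did not pair the libraries. Sums and figures used pandas 2.3.3 and matplotlib 3.10.9 under Python 3.11.15.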

Additional observations from a re-analysis of the deposited data

How the results depend on the processing

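Of the 20 named members that were tested, 13 kept their direction under the pseudocounts of 0.1 and 5, no filter, a filter of 5 TPM (which left out *Adamts4*, *Adamts9* and *Mmp15*), median-of-ratios rescaling, eBayes without a trend, array weights, the replicate block, each library left out in turn, and SHF replicates 2 and 3 left out together, which was added after seeing the data. None passed the threshold under any of these, but the last leaves 1 SHF library, assumed to vary like the CNC libraries, and its lack of calls says nothing. With array weights the log2 difference of *Mmp11* was -0.0898. Without SHF replicates 2 and 3 it was -0.99 for *Mmp11*, 0.71 for *Mmp14*, 0.89 for *Timp1* and 0.53 for *Timp3*, while the median over all genes was 0.26. Over the fits that left out 1 library it ran from -2.378 to 0.0668 for *Adamts15*, from -0.45 to 0.17 for *Adamts5*, from -0.41 to 0.62 for *Mmp11*, from -1.64 to 0.0004 for *Mmp15* and from -0.33 to 0.26 for *Timp3*. The cause was not tested.

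With a pseudocount of 5, 1 gene, not a member, passed the threshold, against 0 otherwise. Leaving out 1 library left 2 to 3 members higher in SHF without overlap and 5 to 7 higher in CNC (10.0% to 12.9% and 9.53% to 12.1% of all genes), and without SHF replicates 2 and 3 there were 6 and 8 (25% and 18.6% of all genes), since fewer libraries overlap less often. Exclusive members numbered 0 to 1 in each direction, with *Timp4* for SHF without SHF replicate 1 and *Adamts17* for CNC without CNC replicate 3. Without the most abundant member of each class the mean sums in SHF and CNC libraries were 527 and 612 TPM for MMPs, 646 and 897 TPM for TIMPs and 510.2 and 401 TPM for ADAMTS genes, and the TIMP to MMP ratio was 1.30 in SHF and 1.504 in CNC, the other order from that with all members. In SHF replicate 1 alone, without SHF replicates 2 and 3, the TIMP sum was 2695 TPM and the ratio 1.88.

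Replicate numbers are shared between lineages, but the deviations of same-numbered libraries had correlations of -0.0113, -0.0044 and -0.0106. With a replicate block 0 members passed the threshold, as without it. Unknown depth limits the low members most.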
